A study of Drosophila melanogaster with 3 samples.

Results

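The strongest binding of the GFP-tagged fly protein CG13894 in embryos was described here through 416 peaks. They were chosen by the deposited signal value alone: of the 7434 peaks in the thresholded list, 430 had a signal over 1000, and the 14 of these whose summits lay in the region of the CG13894 gene on 3L were left out. The 7003 other thresholded peaks outside that region, called the remaining peaks below, were the set they were compared with. The rule used signal, so signal, rank and the width of a peak are given as a description.

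The data came from chromatin immunoprecipitation followed by sequencing (ChIP-seq) of whole *D. melanogaster* embryos, which the description of the sample source gives as 2 to 24 h old; the age label itself holds a number of hours too large for an embryo and was not used. All samples were 1 transgenic line that stably expresses CG13894 with GFP at its C-terminus, precipitated with an antibody against GFP, in 3 biological replicates, and no untagged or mutant group was analysed here. What drives the tagged copy is not given in the sources used here, and sex was not recorded. Each replicate list and the list from the pooled replicates held 30000 peaks, and no file gave read counts, so the depth was unknown.

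A ChIP-seq peak is a stretch of the genome where fragments carried down with the tagged protein pile up, and its summit is the base where they pile highest; the protein can be there by touching DNA itself or through a partner. Fly genes start at a transcription start site (TSS), and the promoter around it can carry short sequence elements: the TATA box, read by the general transcription machinery a little upstream of the TSS, elements read by DREF and by M1BP (motif 1), which are common at broadly expressed genes, or GA repeats, which GAGA factor binds. CG13894 is known by its gene number, and no function is assumed for it here.

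To show what such summits look like, the 99 bases centred on 12 of them are printed 5′ to 3′ from the dm6 reference, promoter summits on the strand of their gene and distal summits on the plus strand. Capitals mark every copy of a pair of 6-base elements, whose counts are given further down. The first is ATATAG, which reads CTATAT where it lies on the opposite strand. The second element of the pair is AATCGG, and on the opposite strand the same element reads CCGATT. None of these windows overlapped an annotated exon. The first 4 are the strongest summits within 500 bp upstream of a TSS of a coding gene that met that condition. They begin with CG8630 at chr3R:13279542-13279640 on the plus strand and mrt at chr3R:27281896-27281994 on the minus strand. The mrt summit lay inside the gene, upstream of an internal TSS. Next come CG14100 at chr3L:19590564-19590662 on the minus strand and Gapdh2, which encodes a glycolytic enzyme, at chrX:15867938-15868036 on the plus strand.
CG8630: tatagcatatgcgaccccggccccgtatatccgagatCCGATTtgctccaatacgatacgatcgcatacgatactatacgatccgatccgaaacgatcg
mrt: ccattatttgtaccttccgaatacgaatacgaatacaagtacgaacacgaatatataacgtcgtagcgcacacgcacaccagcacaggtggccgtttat
CG14100: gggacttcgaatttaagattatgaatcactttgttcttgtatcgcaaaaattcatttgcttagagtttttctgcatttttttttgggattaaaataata
Gapdh2: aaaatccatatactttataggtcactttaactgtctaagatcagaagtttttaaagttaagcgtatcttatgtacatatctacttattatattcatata

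The next 4 are the strongest summits over 500 bp from any TSS under the same condition, after the one in CG8547, which is not printed. They lay in an intron of klar, a gene for transport along microtubules (chr3L:510970-511068), downstream of the fatty acid elongase gene bond (chr3R:22557266-22557364), in an intron of CG11050 (chr2L:6612654-6612752) and in an intron of ush, which encodes a GATA cofactor (chr2L:481020-481118).
klar: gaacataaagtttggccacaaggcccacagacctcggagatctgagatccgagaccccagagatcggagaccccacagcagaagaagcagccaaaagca
bond: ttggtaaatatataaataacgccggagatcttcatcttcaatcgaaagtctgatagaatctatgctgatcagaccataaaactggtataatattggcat
CG11050: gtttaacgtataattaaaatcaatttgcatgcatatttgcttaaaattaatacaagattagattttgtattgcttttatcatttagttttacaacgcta
ush: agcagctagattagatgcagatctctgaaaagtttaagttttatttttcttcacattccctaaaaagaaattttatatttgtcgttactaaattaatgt
Of these 8 windows, the one at CG8630 held a marked element.

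The last 4 are the strongest other summits with both elements in the window. They lay in introns of Gdh, which encodes glutamate dehydrogenase (chr3R:23940055-23940153, signal 2743), of CG3726 (chrX:5918852-5918950, signal 2203) and of Snoo (chr2L:7944330-7944428, signal 1896), and 153 bp upstream of the larval cuticle gene Lcp65Ag2 (chr3L:6133697-6133795 on the minus strand, signal 1258).
Gdh: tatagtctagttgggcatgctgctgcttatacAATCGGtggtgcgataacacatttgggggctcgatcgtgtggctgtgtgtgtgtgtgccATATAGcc
CG3726: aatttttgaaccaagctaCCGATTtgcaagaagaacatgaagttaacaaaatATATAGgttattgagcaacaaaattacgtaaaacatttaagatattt
Snoo: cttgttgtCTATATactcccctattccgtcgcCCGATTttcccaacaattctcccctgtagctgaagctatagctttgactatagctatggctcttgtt
Lcp65Ag2: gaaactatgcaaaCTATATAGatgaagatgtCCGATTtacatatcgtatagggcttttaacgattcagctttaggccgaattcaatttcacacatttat

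The strong peaks, 416 of the 7419 summits outside the CG13894 region, held 21.2% of the signal of the whole thresholded list. Their signal ran from 1012 to 19197 with a median of 1404 and quartiles of 1175 and 1921, and the remaining peaks ran up to the threshold with a median of 326. The distribution was skewed: 97 strong peaks (23.3%) passed 2000, and the 25 strongest alone held 18.6% of the signal of all 416. The strong peaks had a median width of 504.5 bp (304 to 2612), against 325 bp (108 to 2612) in the remaining peaks. They fell into 409 merged regions. A region with several summits held 81 strong peaks (19.5%) and 702 remaining peaks (10.02%), and within 10 kb of a strong summit a median of 3 other thresholded summits lay, against 2 for a remaining summit.

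The strongest member lay in an intron of CG8547 on 2R, 1750 bp downstream of its nearest TSS. It had a signal of 19197 and was number 3 of the thresholded list, and it ranked 3, 3 and 3 in the lists of replicates 1, 2 and 3. The 130 bp upstream of CG8630 came next, with a signal of 10674 and the ranks 5, 5 and 5. The klar summit followed with 7579 and the ranks 7, 8 and 7, and it also lay 1722 bp downstream of the start of a long noncoding RNA, lncRNA:CR46002. The summit downstream of bond had 6558 and the ranks 9, 10 and 9. Over these 4 peaks the replicates thus kept nearly the same order, with no place lost or gained by more than 1. Just below, some places shifted more. The lncRNA:CR45677 summit, number 11 of the thresholded list, had the ranks 11, 9 and 13. The CG11050 summit, number 14, had the ranks 17, 15 and 12.

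Of the 25 strongest members, 13 were promoter summits and 12 were distal, and 8 of the distal ones lay within 2 kb of a TSS. The promoter summits included mrt (signal 6285, 98 bp upstream of a TSS inside the gene) and lncRNA:CR45677 (6191, 209 bp downstream of the TSS). They also included CG14100 (5726, 89 bp upstream) and Gapdh2 (5337, 158 bp upstream). The promoter between mRpL41, a subunit of the mitochondrial ribosome, and lncRNA:CR44463 had 5281. Ugalt, a UDP-galactose transporter gene, had 5149 with its summit 36 bp upstream, and the promoter shared by bbg and CG43246 had 5070. The germline RNA-binding protein gene bol had 4464, hoe1 had 4168, and CG13995 had 3709. The promoters shared by Pdrg1 and Pal1 and by CG13390 and CG17294 had 3535 and 3403.

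The distal ones among the 25 lay in or near genes of varied roles. The summit in CG11050 had a signal of 5562, and the summit in ush had 5418, in a peak 2612 bp wide, 1381 bp upstream of cbt, which encodes a zinc finger transcription factor. Introns of sty, the Sprouty antagonist of receptor tyrosine kinase signalling, held 4015, introns of tara, a gene of the trithorax group, held 3993, and introns of CG9663, an ABC transporter gene, and of Lk6, the MAP kinase-interacting kinase gene, held 3830 and 3580. A summit near the accessory gland serpin gene Acp76A had 3743. The noncoding genes lncRNA:Vinr and lncRNA:CR45916 held summits of 4126 and 3559 in their transcribed sequence.

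Signal values on either side of the threshold lay close together. The 5 weakest members were the shared promoter of JMJD6, Muted and CG7071 (signal 1022), the shared promoter of mRpS2 and Mon1 (1021), the promoter of CG14434 (1018) and introns of Btk (1015) and goe (1012). The 5 strongest remaining peaks lay at the promoter of cno (999.992), upstream of stck (999.671) and in introns of simj (998), CG9328 (998) and scaf (997).

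Most strong peaks lay among the strongest of every replicate. A summit was matched to a replicate when it lay within one of that replicate's peaks. Of the 416, 334 (80.3%) lay in the 416 strongest peaks outside the CG13894 region of all 3 replicates, and 4.5% of all 7419 thresholded summits outside that region did. Another 65 lay in the strongest 416 of 2 replicates, 17 in those of 1, and none in those of 0. The remaining peaks had 0, 8, 90 and 6905 summits in these 4 classes. Since the thresholded list was made from the replicates, these counts describe the rule and nothing is read from them.

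Where the strong peaks missed the strongest 416 of a replicate, they mostly missed narrowly: 410 (98.6%) lay in the strongest 832 of all 3. Worst and best replicate rank differed by a median of 1.37 times for strong peaks and 1.91 times for remaining peaks, and stayed within 2 times for 387 strong peaks (93.03%) and 3542 remaining peaks (50.6%). Across peaks, which are not replicates, Spearman's correlation of signal between replicates 1 and 2, 1 and 3, and 2 and 3 was 0.881, 0.865 and 0.870 for 413, 414 and 413 strong peaks. For 6693, 6686 and 6661 remaining peaks it was 0.653, 0.628 and 0.618. Both describe peaks chosen by signal over ranges of different length. The summit in a replicate lay a median of 9 bp from the strong summit and 16 bp from the remaining summit.

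**Figure D1:**
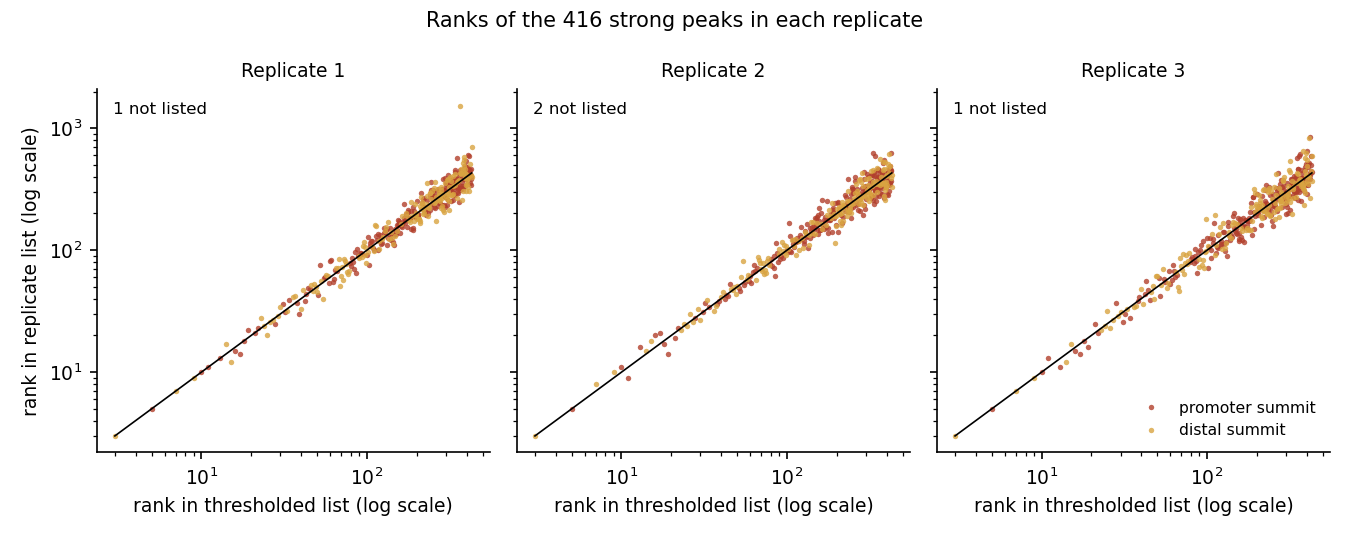
Rank of each strong peak within each replicate's own list (vertical axis, log scale, 1 the strongest) against its rank in the thresholded list (horizontal axis, log scale), 1 panel per replicate, with promoter and distal summits in different colours and a line of equal rank. The peaks sit close to the line, and 334 of the 416 lie in the strongest 416 of all 3 replicates.

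In 1 replicate list each, 4 strong peaks were missing. All 4 were shared promoters with TSSs on both strands, as were 72 of the 239 strong promoter summits (30.1%). With 4 peaks nothing is read from this. The promoter of CG7601 and CIA30 (signal 1907) ranked 101 and 133 in replicates 1 and 3, and was not listed in replicate 2, whose nearest listed summit was 1253 bp away. The promoter of CG6204 and SMC6, a subunit of the SMC5/6 complex, ranked 378 and 251 in replicates 2 and 3 and was not listed in replicate 1. The promoter of CG6511 and CG32022 ranked 481 and 289 in replicates 1 and 3 and was not listed in replicate 2, and that of CG10147 and Bulli ranked 400 and 460 in replicates 1 and 2 and was not listed in replicate 3. These ranks lay far above the end of a list of 30000 peaks. Among the listed ones, a second summit in 1 peak upstream of CG1888 varied most, with the ranks 1535, 555 and 370.

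Strong peaks lay more often at promoters. Promoter summits, within 500 bp of an annotated TSS, were 239 of the 416 strong peaks (57.5%, 95% Wilson interval 52.7 to 62.1) and 2998 of the 7003 remaining peaks (42.8%, 41.7 to 44.0). Introns held 117 strong peaks (28.1%) and 2716 remaining peaks (38.8%), and intergenic sequence held 49 (11.8%) and 15.3% of the remaining ones. Each summit had 1 class, and summits within 500 bp of a TSS counted as promoter summits even where they overlapped an exon. The coding exon class, away from promoters, held 0 of 416 strong summits of the thresholded list. That allows a share of up to 0.721% by a floor of 3 counts and of up to 0.915% by the Wilson interval. The same class held 39 remaining summits (0.557%). Noncoding transcribed sequence held 1.68% of strong and 0.643% of remaining summits. The 3′ UTR held 0.721% of strong and 1.14% of remaining summits, and the 5′ UTR 0.240% and 0.743%.

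The comparison was repeated in each replicate's own list, with its 416 strongest peaks outside the CG13894 region against its next ones down to 7419. The promoter share was 57.0%, 56.0% and 58.4% among the strongest in replicates 1, 2 and 3, against 43.1%, 43.6% and 45.6% among the next ones. The groups did not overlap, and the difference was 13.0 ± 0.784 percentage points (SD, n = 3; exact two-sided sign-flip permutation p = 0.25, adjusted p = 0.25 over the 7 classes). Introns differed by -9.03 ± 0.696 and intergenic sequence by -3.33 ± 0.675 percentage points, and coding exons by -0.387 ± 0.258, each in 3 of 3 replicates. With 3 replicates 0.25 is the smallest p this test can give, so no difference tested this way could pass 0.05. With a threshold of 2000 in place of 1000, which left 97 strong peaks, the promoter difference in the thresholded list was 6.98 percentage points, against 14.6 at 1000. With a threshold of 500 the intron difference was -6.98, against -10.7 at 1000, and with promoters of 200 bp the intergenic difference was -0.623, against -3.54 at 500 bp. The rare classes moved more: the difference for noncoding transcribed sequence, 1.04 in the thresholded list, was 4.51 with a threshold of 2000, 0.321 with promoters of 1000 bp and 0.0533 with a threshold of 500, where 2 of 3 replicates kept its sign. With 500 the coding exon difference was -0.0161, against -0.557 at 1000, also in 2 of 3 replicates.

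**Figure D2:**
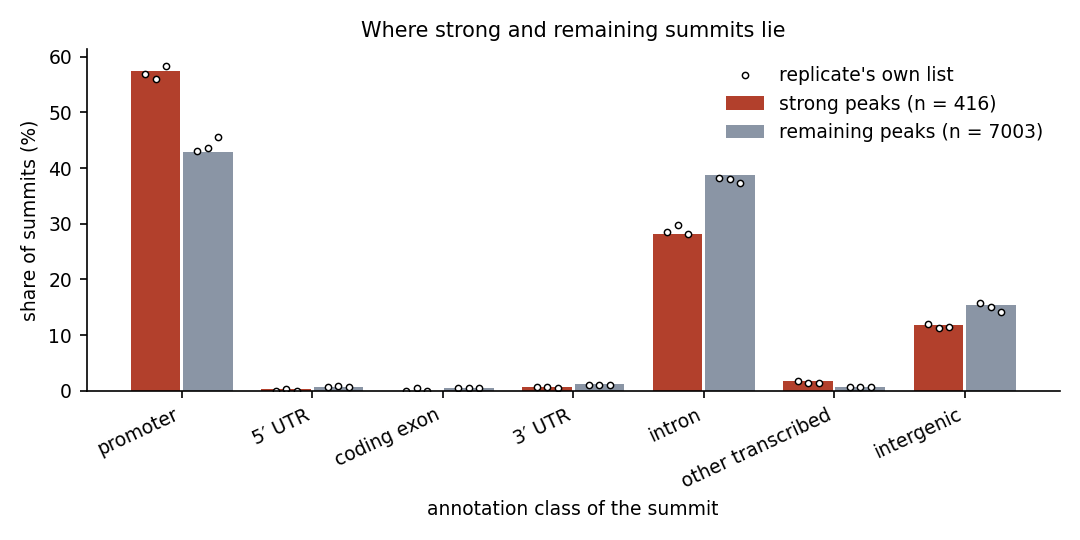
Share of summits (percent, vertical axis) in each annotation class, strong peaks left of remaining peaks, with bars for the thresholded list and points for the 3 replicate lists. Promoters hold 57.5% of strong and 42.8% of remaining summits, and introns 28.1% and 38.8%.

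The promoter share was also read by rank outside the CG13894 region. It was 51% in the 100 strongest thresholded peaks (51 of 100) and 59.5% in ranks 101 to 416 (188 of 316). The gap between these 2 bins rests on few peaks and was not tested. Below them the share fell, with 52.2%, 47.4%, 45.2% and 38.4% in ranks 417 to 1000, 1001 to 2000, 2001 to 4000 and 4001 to 7419. The single 5′ UTR member lay in the elongase gene sit (signal 1662), and the 3′ UTR members lay in by, which encodes the fly tensin (1836), in CG9837 (1362) and in Tctp (1023). In noncoding transcribed sequence, a second summit in lncRNA:CR45916 (2543) came after those in lncRNA:Vinr and lncRNA:CR45916 given above. The third intergenic one, after bond and Acp76A, lay 1298 bp upstream of DNAlig3 (2872).

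Many strong promoters served genes on both strands. TSSs of both strands lay within 500 bp of 72 of the 239 strong promoter summits (30.1%, 24.7 to 36.2) and of 728 of the 2998 remaining ones (24.3%, 22.8 to 25.9). In the replicates the share was 27.8%, 27.9% and 29.2% among the strongest, against 24.8%, 25.3% and 26.9% among the next ones, a difference of 2.67 ± 0.331 percentage points (SD, n = 3, higher in 3 of 3; exact two-sided sign-flip permutation p = 0.25). The difference within the replicates was smaller than the 5.84 percentage points of the thresholded list, where the Wilson intervals of strong and remaining summits overlapped. With promoters of 200 bp the share was 30.6% for strong and 14.98% for remaining promoter summits, a difference of 15.7 percentage points. Only noncoding genes started within 500 bp of 21 strong promoter summits (8.79%) and 212 remaining ones (7.07%), a difference of 2.04 ± 0.272 percentage points over the replicates.

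Strong summits away from promoters still kept near genes. The median distance of distal summits to the nearest TSS was 2146 bp for strong and 2871 bp for remaining peaks, with a difference of -772 ± 283 bp over the replicates. Within 2 kb of a TSS lay 86 of the strong distal summits (48.6%) and 1553 of the remaining ones (38.8%). Summits over 10 kb from any TSS numbered 13 among the strong peaks (3.12%) and 559 among the remaining ones (7.98%), a difference of -4.71 ± 0.352 percentage points over the replicates (SD, n = 3, lower in 3 of 3; exact two-sided sign-flip permutation p = 0.25).

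At promoters, strong summits lay further upstream. Strong promoter summits had a median position of -131 bp, that is upstream of the TSS, with quartiles at -197 and -61.5 bp. Remaining promoter summits had a median of -58 bp with quartiles at -146 and 23 bp. The replicate medians were -126, -132 and -130 bp among the strongest and -62, -56 and -59 bp among the next ones, a difference of -70.3 ± 6.03 bp (SD, n = 3, further upstream in 3 of 3; exact two-sided sign-flip permutation p = 0.25). The spread of the replicates was small beside this shift. The strongest 416 of the replicates largely share their peaks, with 334 strong peaks in all 3, so this spread leaves out the choice of peaks. Upstream of the TSS lay 192 strong promoter summits (80.3%) and 2087 remaining ones (69.6%).

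Binned by 50 bp, the strong promoter summits peaked between 150 and 100 bp upstream, with 56 summits (23.4%), where 12.5% of the remaining promoter summits lay. The last 50 bp before the TSS held 4.60% of strong and 16.8% of remaining promoter summits, and the first 50 bp after it held 4.18% and 12.4%. Strong summits were thus sparse over the TSS itself, where remaining summits were dense. The median moved with rank, from -130 and -131.5 bp in ranks 1 to 100 and 101 to 416 through -108, -76.5 and -57 bp to -43 bp in ranks 4001 to 7419. Summits of weak peaks are placed less exactly, by 16 against 9 bp between lists as given above, and the part of this in the shift was not tested.

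**Figure D3:**
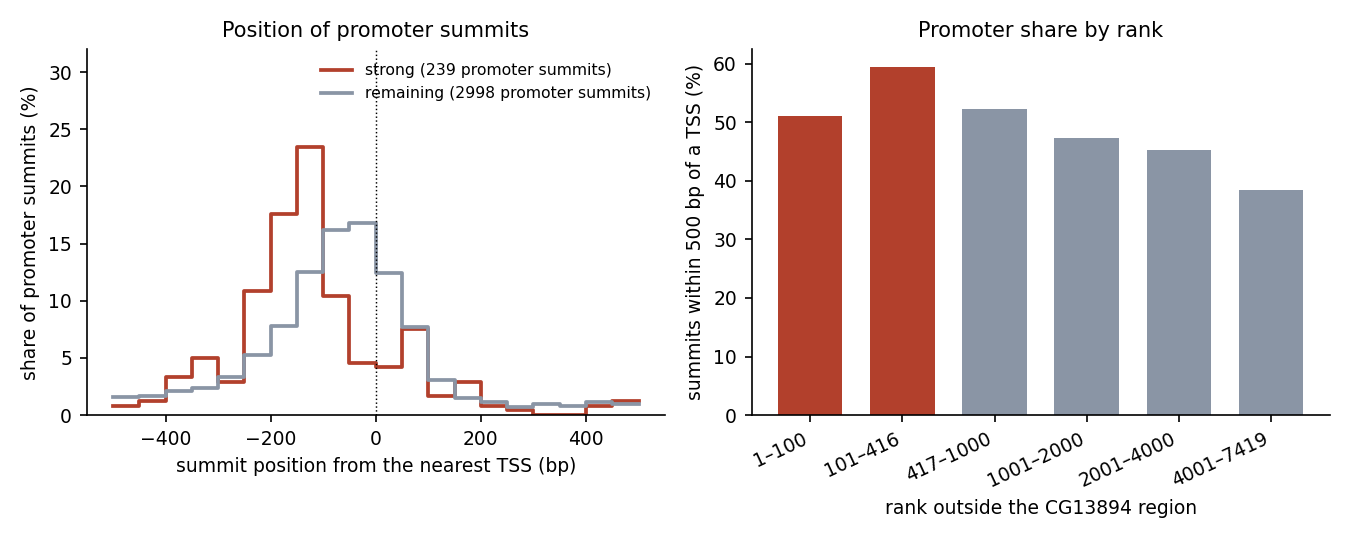
The left panel gives the share of promoter summits (percent) in bins of 50 bp by distance from the nearest TSS (bp, upstream negative) for strong and remaining peaks, and the right panel the share of summits within 500 bp of a TSS (percent) by rank outside the CG13894 region. Strong promoter summits are most frequent 150 to 100 bp upstream (23.4%), while 16.8% of remaining ones lie in the last 50 bp before the TSS. The promoter share is 51% in the 100 strongest peaks and 59.5% in ranks 101 to 416, a gap that was not tested, and falls below them.

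Strong summits sat in DNA richer in A and T. The 200 bp around strong summits had a mean GC content of 39.8%, against 43.0% around remaining summits (difference over the replicates -2.89 ± 0.147 percentage points). At promoters the means were 37.8% and 42.0%, and at distal summits 42.5% and 43.7%. The sequence 1000 bp to either side had 42.7% around strong and 42.1% around remaining summits, so the lower content did not extend that far. Anchored on the TSS instead, from 250 bp before to 50 bp after it, the promoters of strong summits had 41.4% and those of remaining summits 41.8%, a difference of -0.0951 ± 0.254 over the replicates, which is within their spread.

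Short promoter elements were counted on both strands in the 200 bp around each promoter summit. The TATA box (TATAAA) was in 97 strong windows (40.6%, 34.6 to 46.9) and 798 remaining windows (26.6%, 25.1 to 28.2). Elements common at broadly expressed genes were rarer at strong summits. The DREF element (TATCGATA) was in 6 strong windows (2.51%, 1.16 to 5.37) and 211 remaining windows (7.04%, 6.18 to 8.01), and the shorter DREF core (ATCGAT) in 7.11% and 16.7%. The motif 1 core (GGTCACAC), bound by M1BP, was in 3 strong windows (1.26%, 0.428 to 3.62) and 143 remaining windows (4.77%, 4.06 to 5.59). The motif 6 core (GGTATTTT) was in 1.26% of strong and 3.50% of remaining windows, and the CA repeat (CACACACA) in 2.51% and 6.24%.

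Over the replicates, the TATA box differed by 14.4 ± 2.34 percentage points, the DREF element by -4.53 ± 0.160, its core by -9.19 ± 1.07 and the motif 1 core by -3.86 ± 0.336 (SD, n = 3, each with the same sign in 3 of 3; exact two-sided sign-flip permutation p = 0.25, adjusted p = 0.359 over 23 motifs). At all summits, promoter or not, the TATA box was in 31.7% of strong and 24.3% of remaining windows, and in 22.5% and 21.6% of the windows 1000 bp away. The DREF element was in 1.44% of strong and 3.30% of remaining windows, and in 0.601% and 0.593% of those 1000 bp away. With a threshold of 500 the differences at all summits were -0.373 for the DREF element, -1.21 for its core and -0.391 for motif 6, against -1.86, -3.55 and -1.59 at 1000, and each kept its sign in 2 of 3 replicates. At distal summits alone the TATA box was in 19.8% of strong and 22.6% of remaining windows, and its replicate differences had both signs. The GA repeat (GAGAGA), which GAGA factor binds, was in 10.5% of strong and 12.3% of remaining promoter windows. At all summits its difference of -0.478 percentage points took the other sign under several alternatives, 0.286 without replicate 1 among them. The promoter windows also differed in GC content, 37.8% against 42.0% as given above, and its part in the motif shares was not tested.

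Since the strong summits lay further upstream and in A/T-rich DNA, the same letters were also counted in a window fixed on the TSS, a choice made after the summit windows had been seen. From 250 bp before to 50 bp after the TSS, the TATA box was in 43.5% of strong and 37.8% of remaining promoters, and in 42.2% of the windows at all 19607 TSSs of coding genes. Only noncoding genes started at 8.79% of these strong and 7.07% of these remaining promoters. The shares of all TSSs given here leave noncoding genes out. The DREF element was in 3.35% of strong and 9.54% of remaining promoters and in 7.98% of all, and the motif 1 core in 2.93%, 8.51% and 6.72%. The CA repeat was in 6.69% of strong and 7.61% of remaining promoters and in 5.73% of all, a replicate difference of -0.0769 ± 0.674, so the gap at the summits was not seen in this window. The GA repeat was in 26.8% of strong and 21.4% of remaining promoters and in 14.6% of all. Against the next peaks of each replicate, the DREF element differed by -6.46 ± 0.470, the motif 1 core by -5.43 ± 0.663, the GA repeat by 6.86 ± 1.32 and the TATA box by 6.20 ± 1.94 percentage points (SD, n = 3, same sign in 3 of 3; exact two-sided sign-flip permutation p = 0.25, adjusted p = 0.292 over 7 motifs).

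A TATA box that positions the transcription machinery lies a short way upstream of the TSS on the gene's strand. In the stretch from 45 to 15 bp before the TSS, chosen after the summit windows had been seen, TATAAA was in 10 strong promoters (4.18%, 2.29 to 7.53) and 141 remaining promoters (4.70%, 4.002 to 5.52), and at 7.68% of all TSSs of coding genes. The replicate difference was 0.101 ± 0.460 percentage points, which is within the spread of the replicates. Without the promoters where only noncoding genes started, 218 strong and 2786 remaining promoters were left. There the shares were 3.67% of strong and 4.74% of remaining promoters, with a replicate difference of -0.667 ± 0.587 percentage points (SD, n = 3, lower in 3 of 3; exact two-sided sign-flip permutation p = 0.25). In neither count was the placed TATA box more frequent at strong promoters of the thresholded list.

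**Figure D4:**
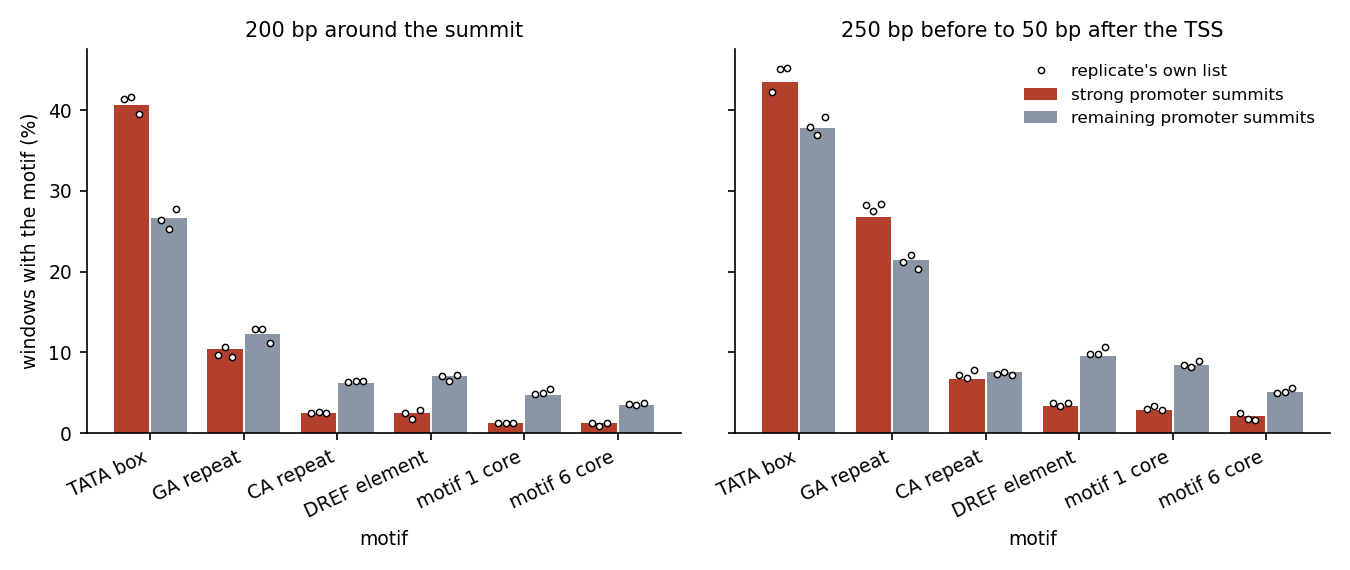
Share of promoter windows (percent, vertical axis) with each of 6 motifs, strong peaks left of remaining peaks, in the 200 bp around the summit (left panel) and from 250 bp before to 50 bp after the TSS (right panel), with bars for the thresholded list and points for the 3 replicate lists. The DREF element and the motif 1 core are rarer at strong summits in both windows, whereas the GA repeat is rarer around the summit (10.5% and 12.3%) and more frequent around the TSS (26.8% and 21.4%).

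To see which short sequences marked the summits themselves, 6-base sequences were ranked by how much more often they were in the central 100 bp of strong peaks than in windows 400 and 600 bp to either side. The ranking used the strong peaks of chromosome arms 2L, 2R and X, and the shares were then read on 3L, 3R and 4. The ranking covered only the 162 sequences that met a minimum share of 10%. Both elements were chosen after seeing the data, so no test is given. Strong summits lay in DNA richer in A and T, with 39.8% GC against 43.0%, and its part in these shares was not tested. When 8-base sequences were compared between strong and remaining peaks, 18 of the 20 leading ones held A and T alone. Among the 10 leading 6-base sequences 2 did. ATATAG led, with 17.9% of the central windows against 4.37% of the flanking ones on the first arms, and 20.9% against 4.14% on the others. AATCGG came second with 13.97% against 3.49%, and 10.7% against 4.01% on the others. On those other arms AATCGG, at 2.67 times its flanks, came behind ATATAG at 5.03 times. It also came there behind ACTATA, at 3.6 times, and ATATAT, at 2.89 times, which are among the 10 leading sequences and overlap ATATAG in letters. ATATAT was the more common one, in 22.4% of strong and 10.8% of remaining peaks.

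On all arms, ATATAG was in the central 100 bp of 80 strong peaks (19.2%, 15.7 to 23.3) and 601 remaining peaks (8.58%, 7.95 to 9.26), and at 6.21% of windows of the same length and usual place upstream of all coding TSSs. AATCGG was in 52 strong peaks (12.5%, 9.66 to 16.0) and 518 remaining peaks (7.40%, 6.81 to 8.03), and at 4.23% of those windows. At least 1 of them was in 123 strong peaks (29.6%, 25.4 to 34.1) and 1078 remaining peaks (15.4%, 14.6 to 16.3), and both were in 9 (2.16%) and 41 (0.585%). That is no more than their separate shares would give if the elements were placed independently. The word pair thus names the elements chosen and not a joint site. With a threshold of 500 the differences between strong and remaining peaks were 4.64 percentage points for ATATAG and 2.04 for AATCGG, against 10.6 and 5.10 at 1000, and with 2000 that of AATCGG was 8.93. Most strong peaks held neither, as 7 of the 8 strongest windows printed above show.

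Neither element was a feature of promoters alone. ATATAG was at 16.7% of strong and 6.70% of remaining promoter summits, and at 22.6% of strong and 9.99% of remaining distal summits. AATCGG was at 11.3% of strong and 6.70% of remaining promoter summits, and at 14.1% and 7.92% of distal ones. In the replicates' own lists, ATATAG was at 17.7 ± 1.45% of the strongest and 8.42 ± 0.223% of the next summits, and AATCGG at 12.02 ± 0.962% and 7.02 ± 0.331% (SD, n = 3 each). The strongest members with the pair in 1 window are the printed Gdh, CG3726, Snoo and Lcp65Ag2 summits, 3 of them in introns.

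A strong promoter summit was assigned to 286 coding genes, which is 2.05% of the 13945 coding genes of the annotation. The counts in the replicates' own lists were 286, 271 and 300, and 222 genes (77.6%) had one in all 3. Any thresholded summit outside the CG13894 region lay at the promoter of 3174 coding genes (22.8%). Of the 286 genes, 65 (22.7%) also had a remaining summit, which is 2.20% of the 2953 genes with one. Of all 13945 coding genes 2953 had a remaining summit and 2.05% a strong one. The overlap was thus close to what all coding genes show. Gene lists were drawn up by symbol with earlier results of these data known, so the counts below describe them and were not tested. For comparison, a strong summit lay at 2.05% of all coding genes and at 9.01% of those with any summit. The same shares were 2.38% and 8.70% for translation factors and tRNA synthetases, close to all genes. For insulin and TORC1 growth genes they were 5.88% and 11.1%, and for the mitochondrial ribosome 8.22% and 23.1%. For Polycomb and trithorax genes they were 9.38% and 21.4%, for insulators 10% and 20%, and for stress-responsive factors 13.3% and 22.2%.

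Glycolytic enzyme genes had the highest share among the lists, with a strong summit at 4 of 14 promoters (28.6%) and any summit at 7. They were Gapdh2 (signal 5337), Hex-A, the hexokinase gene (1632, 149 bp upstream), Eno, the enolase gene (1567), and Pgk, the phosphoglycerate kinase gene (1503). The Eno and Pgk summits lay inside their genes, 210 and 395 bp upstream of an internal TSS. The replicates' own lists gave 4, 4 and 5 genes. With promoters of 200 bp the count was 2, and with a threshold of 2000 it was 1, Gapdh2. Of the 7 bound genes, the median rank of the best summit was 202, that of Pgk, and of all bound coding genes it was 2818.5. With 4 of the 7 strong, the median of 202 restates that count and adds nothing to it. With 14 genes in the list, such a share rests on few genes.

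Among stress-responsive transcription factor genes 4 of 30 had a strong summit and 18 any. These were Atf3, which encodes a bZIP factor (2176, 217 bp upstream), and REPTOR, a factor held back by TORC1 (1931). The REPTOR summit lay inside the gene, 166 bp upstream of an internal TSS. The others were Rel, an NF-kappaB factor of immunity (1325, 90 bp downstream), and cbt (1238, 382 bp upstream). That count was 2 with promoters of 200 bp and 1 with a threshold of 2000. Of 34 genes of insulin and TORC1 growth signalling 2 had a strong summit and 18 any: Lpin, a phosphatidate phosphatase gene (1401), and Sesn, the sestrin gene (1066, shared with CG46429). In replicates 1, 2 and 3 that count was 1, 2 and 1, and without replicate 2 it was 1. The transcription factor gene foxo, which insulin signalling restrains, had 4 strong summits nearest to it and none of them at a promoter.

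Chromatin regulators were also among the strong promoters. Of 32 Polycomb and trithorax group genes 3 had a strong summit and 14 any. ph-p, a subunit of PRC1, had 3030, with the summit inside the gene 458 bp upstream of an internal TSS. brm, the ATPase of a SWI/SNF complex, had 1806 at a promoter shared with Arl1. E(z), the H3K27 methyltransferase of PRC2, had 1174 at a promoter shared with Cnep1r2. Of 20 genes of insulators and promoter architecture 2 had one and 10 any, both for insulator proteins: Chro (2318, shared with Ssl1) and Cp190 (1838, shared with CG4338). At shared promoters the summit cannot be given to one gene, and that holds for 4 of these 5.

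Most cytoplasmic ribosomal protein genes were bound, and at this threshold mostly by remaining peaks alone. Of 86 genes of the cytoplasmic ribosome 63 had any summit and 5 a strong one, which is 5.81% of the list; among those with any summit, 7.94% had a strong one, against 9.01% of all bound coding genes. That order depended on the threshold: with 500 the shares were 42.9% (27 of 63) and 33.3%, and with 2000 they were 0% and 1.86%. The 4 strongest, all at shared promoters, were RpL34b (1402, with CG8132), RpL7 (1400.4, with Ripalpha), RpS27 (1293, with Nup37) and RpL14 (1097, with Nelf-E). Of 73 genes of the mitochondrial ribosome 6 had a strong summit and 26 any, led by mRpL41 (5281), mRpS10 (3394, shared with Art3), mRpS23 (2566, shared with CenG1A) and mRpL23 (1830, shared with CG9004). Of 84 translation factor and tRNA synthetase genes 2 had one and 23 any: eIF4EHP, a repressor of cap-dependent translation (2683, shared with CG18428), and eIF6, a factor of the large ribosomal subunit (2646, shared with asRNA:CR45928).

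The other lists had 1 or no strong promoter. Hsp83, the Hsp90 gene, was the member among 35 heat shock and chaperone genes (1421), of which 15 had any summit. The Hsp83 summit lay 112 bp upstream of a TSS inside the gene. Lcp65Ag2 was the member among 120 cuticle protein genes (8 had any). No strong summit lay at the promoters of 22 Notch pathway genes (10 had any), 18 ecdysone response genes (7), 48 cell cycle and DNA replication genes (18), 25 genes of EGF receptor signalling (9), 38 segmentation and homeobox genes (1) or 180 chemosensory receptor genes (3). Among all coding genes 2.05% had a strong promoter summit, and among those with any summit 9.01% did. At such shares a list with few bound genes can lack strong summits by its size alone. Whether strong peaks avoid these lists was not tested. With a threshold of 500 the counts were 3 for the Notch pathway and 4 each for ecdysone response, cell cycle and EGF receptor signalling. The ecdysone list left out Eip63F-1 and Sox14, ecdysone-induced genes named here after their values were seen, which had strong promoter summits of 1132 and 2251. A strong summit in an intron, as in sty, does not enter these promoter counts. Among genes with any summit, the median rank of the best one was 1552 for translation factors and synthetases, 2017 for the cytoplasmic and 3039 for the mitochondrial ribosome, and 3136 for stress-responsive factors, beside the 2818.5 of all bound coding genes.

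**Figure D5:**
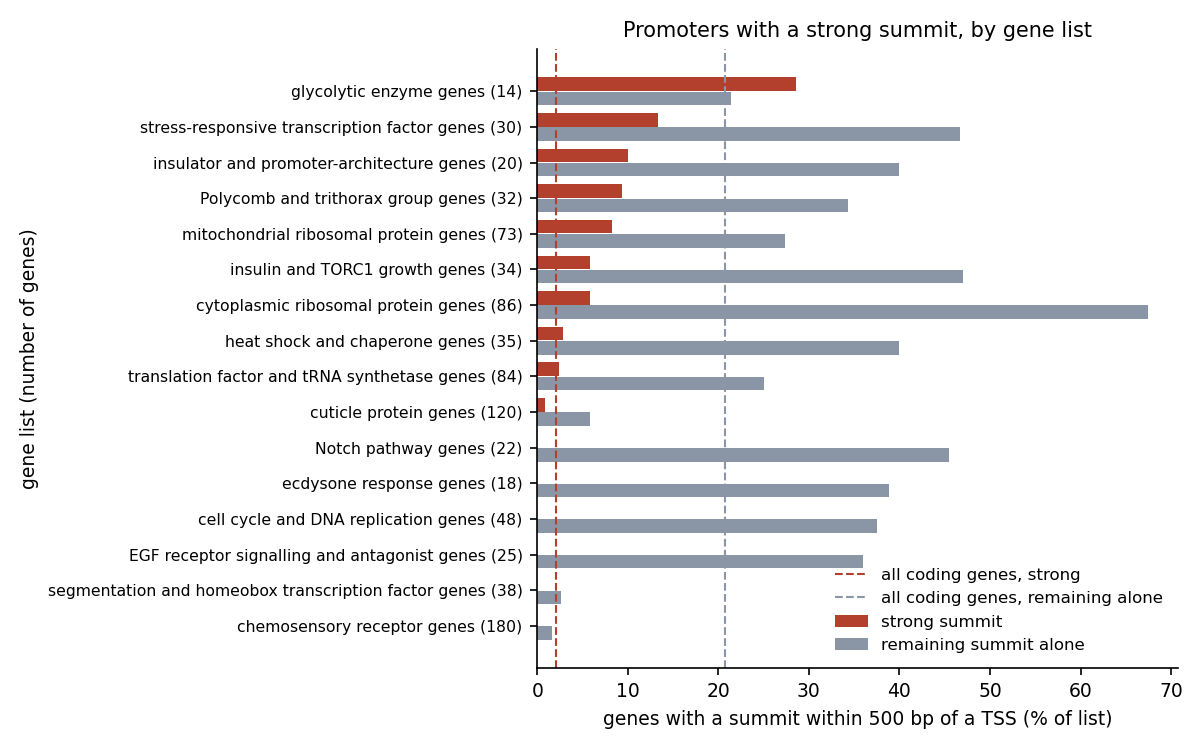
Share of the genes of each list (percent, horizontal axis; number of genes in brackets) with a strong promoter summit and with a remaining one alone, and dashed lines for the same shares of all 13945 coding genes. Glycolytic enzyme genes reach 28.6% with a strong summit, while cytoplasmic ribosomal protein genes reach 5.81%; a threshold of 500 would count 27 of their 63 bound promoters as strong, against the 5 shown.

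Some genes collected several strong summits. Assigned to the gene that holds them, or else to the nearest TSS, the 416 summits fell to 372 genes, of which 23 had 2 and 8 had 3 or more. tara had 6, all in introns, with signals of 3993, 1703, 1274, 1074, 1063 and 1042, among 21 thresholded summits over its 34679 bp (chr3R:16225651-16260329). Their ranks in replicates 1, 2 and 3 were 20, 24 and 32 for the strongest, and 332, 619 and 398 for the weakest. The gene thus held 1 very strong summit and several near the threshold.

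CG1888 had 4 strong summits, 1 at its promoter (2827) and 3 in intergenic sequence (2072, 1855 and 1101). foxo had 4, of which 2 in introns had 1527 and 1212 and 2 upstream had 1483 and 1297. Tlk, the Tousled-like kinase gene, had 3 in introns (3060, 1775 and 1261), HmgZ, a gene for a high mobility group protein, had 3 (2139, 1870 and 1765), and CG9837 had 3 (2189, 1545 and 1362). lncRNA:CR44754 held 3 in introns (1918, 1464 and 1263). sit had 3 (2104, 1677 and 1662), and with the summit downstream of bond, its neighbour and also a fatty acid elongase gene, 4 strong summits lay within 8547 bp of 3R.

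The strong peaks were spread over the 5 long chromosome arms nearly in proportion to length. Arms 2L, 2R, 3L, 3R and X held 81, 77, 84, 102 and 71, or 3.44, 3.05, 3.00, 3.18 and 3.02 per Mb, and chromosome 4 held 1, or 0.751 per Mb. Remaining peaks stood at 58.2, 51.5, 55.4, 48.7 and 49.2 per Mb on the 5 long arms and at 48.8 on chromosome 4. In the replicates' own lists the strongest 416 gave 83.7 ± 3.51, 75.3 ± 3.51, 85 ± 5, 102 ± 6.25 and 69 ± 2.65 on the long arms, and 1 ± 0 on chromosome 4 (SD, n = 3). The short chromosome 4 thus had about as dense a set of remaining peaks as the long arms, and a single strong peak in each list. It makes up 0.996% of the sequence and held 0.928% of the remaining peaks, so few of 416 strong peaks would lie there in proportion. A count of 1 is too small to tell a lack of strong peaks from counting error.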

How the data were processed

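Peak lists of 3 ChIP-seq replicates of GFP-tagged CG13894 embryos were used. Per the labels' file notes, the authors called peaks on each replicate and on the pooled replicates against a control alignment, on dm6, and derived the optimal set under a threshold on the irreproducible discovery rate. Not given in the sources used here were the aligner, the caller, its settings and that threshold. Each peak's deposited signal is the caller's value, on another scale in each list, and was ranked within lists only. The deposited −log10 q-value was checked and used in no result. The deposited summit offset gave the summit; in 5 remaining peaks it fell past the peak's end and was set to the last base. Without read counts the depth per replicate is unknown; 95% Wilson intervals cover counting error only.

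The members and lists were chosen with earlier results of these data known. Genes and the 23722 TSSs came from Ensembl release 115, on a reference where 99.8% of 30593 start codons read ATG. The TSSs of all transcripts were used, so some lay inside their gene. A summit took the first class that held among promoter, 5′ UTR, coding sequence, 3′ UTR, intron, noncoding transcript and intergenic. Differences, strong minus remaining, were recomputed in each replicate's list and tested with an exact two-sided sign-flip permutation test over 3 replicates, with Benjamini-Hochberg adjustment within each family. The labels call the replicates biological without saying what sets them apart, so the spread between them may be partly technical. The replicate lists also share most of their strongest peaks, so their SD does not cover the choice of peaks. Named genes were those at the 25 strongest members, up to 4 per gene list, the 3 strongest per class, 5 on either side of the threshold, the 5 with the most variable ranks, of which the 4 not listed in 1 replicate and the first of the listed ones are given, and those with 3 or more summits. Gdh, CG3726 and Snoo were named for their sequences. The 16 gene lists were matched by symbol, and 23 motifs as exact letters. The TSS windows, the placed TATA box, the summit elements and the position bins were chosen after seeing the data. Scripts were tested on simulated data with known answers. Alternatives were other signal thresholds, promoter distances, windows, region merging, matching rules and leaving out each replicate. Leaving out a replicate changed the ranks used and not the thresholded list, which was made from all 3, so that replicate still shaped the peaks. Python 3.11.15, numpy 2.4.6, pandas 2.3.3, scipy 1.17.1 and matplotlib 3.10.9 were used.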

Additional observations from a re-analysis of the deposited data

How the results depend on the processing

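The promoter share difference between strong and remaining thresholded peaks lay between 6.98 and 15.1 percentage points under 11 alternatives, the intron difference between -11.0 and -6.98 under 8, and the difference in median promoter summit position between -102 and -56 bp under 9; all kept their sign. The share of strong peaks among the strongest of every replicate lay between 66.6% and 98.6% under 7. Of 178 alternatives for differences, 167 kept the sign and 11 turned it; the cause was not tested. The 5′ UTR difference was 0.0286 with promoters of 200 bp. The TATA box difference was -2.87 at distal summits alone and -0.519 from 45 to 15 bp before the TSS, and that of the DREF core 0.466 at distal summits alone. The GA repeat difference (-0.478) was 1.12 with a threshold of 2000, 1.16 with 500, 4.09 in 400 bp windows, 0.788 at distal summits alone, 5.36 in the TSS window and -0.733 to 0.286 without one replicate. The palindromic E-box (CACGTG) difference was 0.700 in the TSS window. The 286 genes became 59 with a threshold of 2000 and 1058 with 500. Of 112 alternatives for the gene lists, 86 stayed within 1.5 times of the reported count and 26 did not. The share of strong peaks on 2L (19.5%) became 14.4% with 2000 and 19.0 to 20.4% without one replicate, that on 3L (20.2%) 23.7% with 2000, that on X (17.1%) 15.8% with 500, and that on chromosome 4 (0.240%) became 0 with 2000, 0.685% with 500 and 0.244% with 1 summit per region. Depth could not be judged without read counts.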
